A study of Caenorhabditis briggsae with 10 samples.

Results

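Among the 23175 genes counted in the nematode Caenorhabditis briggsae, 132 differed between the strains HK104 and AF16 in the same direction in cold-exposed and in control worms, and the alleles of their hybrid differed in that direction too. In 62 of them the HK104 level was the higher one and in 70 the AF16 level. They were chosen by measured values. For each condition, P was the log2 ratio of the mean HK104 level to the mean AF16 level, in CPM (counts per 1000000 counts of the library) with 0.5 added to each mean, and A was the log2 ratio of HK104 to AF16 reads in the hybrid, with 0.5 added to each count. A gene was included when each hybrid library held at least 20 reads assigned to an allele, when the AF16 allele took between 5% and 95% of them in both libraries, and when P and A had one sign and a size of at least 1, a 2-fold difference, in both conditions. Of the 8100 genes that met the minimum of assigned reads, the 132 were 1.63%. The size, the sign and the stability of P and A are therefore fixed by the choice and are given below as a description.

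RNA was taken from whole worms, and all strains were labelled wild type. The cold groups were HK104, AF16 and their hybrid, synchronised in the middle or late part of larval stage L4, grown for 24 hours at 20 °C and then held for 60 hours at 4 °C. The control groups were HK104, AF16 and the hybrid collected right after the 24 hours of growth. HK104 stands for the temperate and AF16 for the tropical populations of the species in this study. Each parental group had 2 libraries and the hybrid had 1 library in each condition. No control group was held for the further 60 hours without cold, so cold and elapsed time cannot be told apart. Neither the generation nor the direction of the cross is given in the labels. In RNA from whole worms, fewer cells of a type and less RNA per cell cannot be told apart.

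A level of expression can differ between strains for reasons that lie near the gene on its own chromosome, such as a promoter or enhancer variant, which are said to act in cis. It can also differ through a diffusible product of another gene, such as a transcription factor, which acts in trans. In a hybrid both alleles of a gene share the same cells and the same diffusible factors, so a difference in cis is expected to persist between the alleles while a difference in trans is expected to reach both alleles alike. This is why an allele ratio is commonly set beside the difference between the parents. The genes are given by WormBase identifier alone, since their names, positions and sequences are not in the tables used here.

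The 8 parental libraries held between 15360979 and 18362210 counts. The hybrid libraries held 6008659 assigned reads after cold and 5334965 in control, of which the AF16 allele took 53.1% after cold and 53.4% in control. Replicates lay farther apart after cold than in control. Over the 132 genes, the median absolute log2 difference between the libraries of a group was 0.332 in HK104 cold and 0.171 in HK104 control worms, and 0.407 in AF16 cold and 0.161 in AF16 control worms. Nothing in the labels says whether the replicates came from separate cultures, so the p-values below measure the spread between these libraries, which may be technical.

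In the 62 genes with the higher HK104 level, the median A was 2.18 after cold and 1.74 in control, and the median P was 2.01 after cold and 1.81 in control. In the 70 genes with the higher AF16 level, the median A was -2.06 after cold and -2.11 in control, and the median P was -1.96 after cold and -1.74 in control. Averaged over the conditions, the size of A ranged from 1.12 to 3.80 with a median of 2.08, and the size of P from 1.02 to 5.03 with a median of 1.93. The upper ends are not comparable, since the limits on the allele share cap A and not P. The mean A was below 2 in size in 32 of the 62 HK104-higher genes and in 30 of the 70 AF16-higher genes, and above 3 in 12 and 10 genes of these sets.

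**Figure D1:**
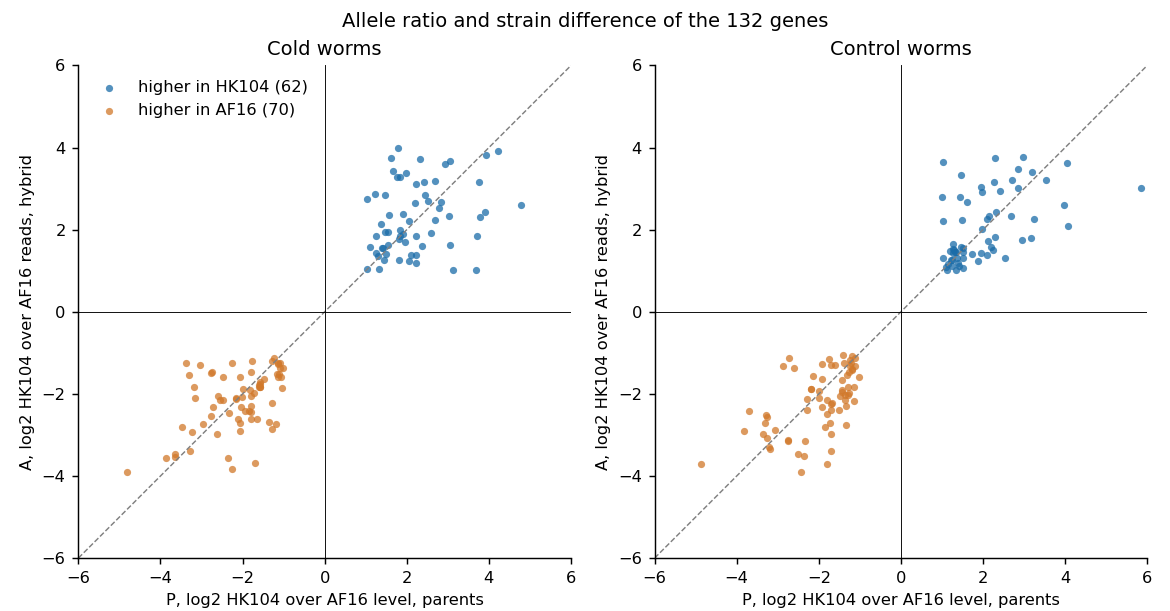
The log2 ratio of HK104 to AF16 reads in the hybrid (A, vertical axis) is plotted against the log2 ratio of HK104 to AF16 levels in the parents (P, horizontal axis) for cold worms (left) and control worms (right), with 1 point for each of the 132 genes and a dashed line where A equals P. Genes lie only in the upper right quadrant (62 genes higher in HK104) and the lower left quadrant (70 higher in AF16), as the choice of genes requires, and they scatter on both sides of the dashed line.

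WBGene00040669 and WBGene00024619 had the largest differences among the HK104-higher genes, when each gene was ranked by the smallest of its 4 sizes of P and A. After cold, WBGene00040669 had 204 and 115 CPM in the HK104 libraries, against 12.2 and 7.57 CPM in the AF16 libraries. In control worms it had 403 and 443 CPM in HK104, against 27.2 and 22.7 CPM in AF16. In the hybrid, 1157 HK104 and 81 AF16 reads were assigned after cold, and 2307 HK104 and 188 AF16 reads in control. The strains did not overlap in either condition, and the ratio changed little. A was 3.83 after cold and 3.61 in control, beside a P of 3.94 after cold and 4.06 in control.

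WBGene00024619 was low in AF16 in both conditions. It had 46.1 and 31.3 CPM in HK104 after cold, against 1.95 and 1.25 CPM in AF16, and in control worms 134 and 111 CPM in HK104, against 2.33 and 0.986 CPM in AF16. The hybrid held 158 HK104 and 10 AF16 reads after cold, and 460 HK104 and 56 AF16 reads in control. A was 3.92 after cold and 3.03 in control, smaller than the P of 4.22 after cold and 5.84 in control.

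The most abundant HK104-higher genes by mean CPM were WBGene00034139 and WBGene00041295. WBGene00034139 had 108 and 56.9 CPM in HK104 after cold, against 16.99 and 7.68 CPM in AF16, and in control worms 697 and 627 CPM in HK104, against 67.4 and 46.0 CPM in AF16. Its alleles took 774 HK104 and 85 AF16 reads after cold, and 4093 HK104 and 443 AF16 reads in control. The level of WBGene00034139 differed widely between the conditions, yet the AF16 allele took 9.90% of the reads after cold (95% Wilson interval 8.07 to 12.1) and 9.77% in control (8.93 to 10.7). These intervals cover counting error only.

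WBGene00041295 had 124 and 75.8 CPM in HK104 after cold, against 35.7 and 11.9 CPM in AF16, and in control worms 413 and 468 CPM in HK104, against 76.4 and 73.6 CPM in AF16. A was 1.23 after cold and 1.30 in control, from 441 HK104 and 188 AF16 reads after cold and 1374 HK104 and 557 AF16 reads in control, beside a P of 2.04 after cold and 2.55 in control. The AF16 cold libraries lay far apart, and P after cold was 3.02 without AF16 cold replicate 1 and 1.47 without AF16 cold replicate 2. A was below P with each parental library left out.

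Among the AF16-higher genes, WBGene00038824 and WBGene00040327 had the largest differences by the same ranking. WBGene00038824 had 0.635 and 0.818 CPM in HK104 after cold, against 34.0 and 34.2 CPM in AF16, and in control worms 0.851 and 0.520 CPM in HK104, against 35.3 and 33.1 CPM in AF16. The hybrid held 12 HK104 and 185 AF16 reads after cold, and 10 HK104 and 136 AF16 reads in control. The level of WBGene00038824 was thus similar in all 4 libraries of a strain, and A was -3.89 after cold and -3.70 in control, beside a P of -4.82 after cold and -4.87 in control.

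WBGene00040327 had 4.25 and 3.65 CPM in HK104 after cold, against 47.2 and 37.7 CPM in AF16, and in control worms 4.37 and 2.95 CPM in HK104, against 37.9 and 37.5 CPM in AF16. In the hybrid it held 38 HK104 and 403 AF16 reads after cold, and 25 HK104 and 259 AF16 reads in control. All 4 values of WBGene00040327 lay close together, with A at -3.39 after cold and -3.35 in control and P at -3.27 after cold and -3.20 in control.

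The most abundant AF16-higher genes were WBGene00024150 and WBGene00027635. WBGene00024150 had 107 and 167 CPM in HK104 after cold, against 805 and 1029 CPM in AF16, and in control worms 111 and 101 CPM in HK104, against 858 and 687 CPM in AF16. It had the most assigned reads of the 132 genes, with 2191 HK104 and 6017 AF16 reads after cold and 2142 HK104 and 5384 AF16 reads in control. A of WBGene00024150 was -1.46 after cold and -1.33 in control, smaller in size than the P of -2.74 after cold and -2.86 in control.

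WBGene00027635 had 296 and 309 CPM in HK104 after cold, against 543 and 781 CPM in AF16, and in control worms 265 and 267 CPM in HK104, against 603 and 667 CPM in AF16. Only 172 HK104 and 517 AF16 reads were assigned in the hybrid after cold, and 166 HK104 and 462 AF16 reads in control, few for a gene of this level in the parents. A was -1.58 after cold and -1.47 in control, larger in size than the P of -1.13 after cold and -1.25 in control.

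**Figure D2:**
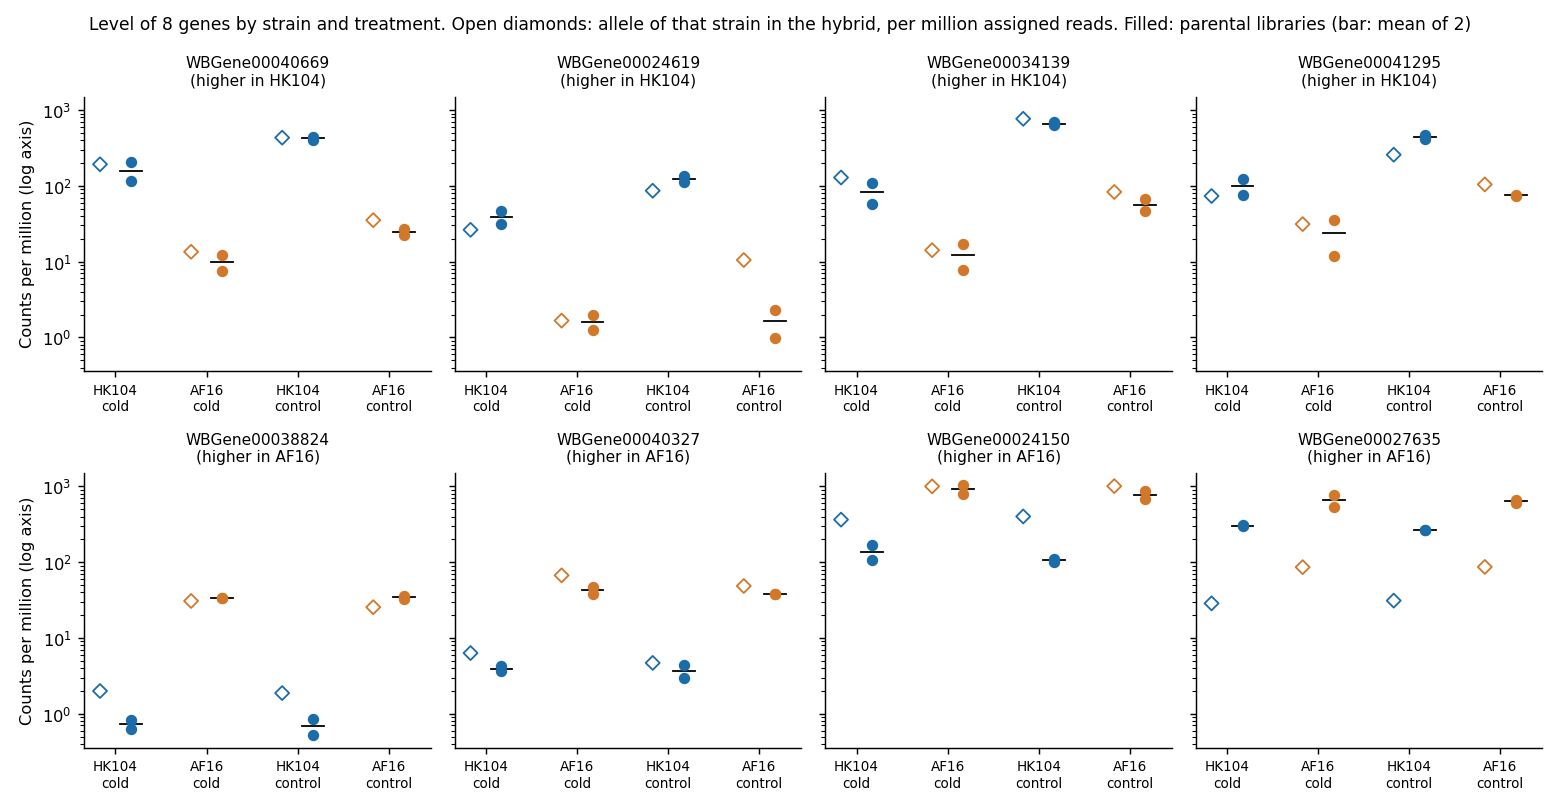
Levels in CPM on a log axis are shown for 8 of the 132 genes, 4 higher in HK104 (top) and 4 higher in AF16 (bottom), by strain and treatment. Open diamonds are the strain's allele in the single hybrid library of that condition, in CPM of assigned reads, filled points are the 2 parental libraries and bars are their mean. Assigned reads of both alleles make up the hybrid's total, so an allele at its parental level would lie at 0.5 of the parental CPM. In all 8 genes the strain with the higher level kept it in both conditions, and its allele held more reads in the hybrid.

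The cut at a size of 1 ran through a continuous range of values. Just inside it were WBGene00271289, with a P of 1.03 after cold and 1.00 in control, and WBGene00028173, with an A of 1.01 after cold. On the AF16-higher side these were WBGene00031969, with a P of -1.01 after cold, and WBGene00037971, with a P of -1.02 in control. Just outside were WBGene00087188 with an A of 0.997 after cold, WBGene00039113 with a P of 0.96 in control, WBGene00031897 with a P of -0.98 in control and WBGene00039974 with a P of -0.98 in control, all of which met every other condition.

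The 132 genes were a part of the genes whose parental difference was stable. P had one sign and a size of at least 1 in both conditions in 905 genes, and 384 of these met the minimum of assigned reads, 194 higher in HK104 and 190 higher in AF16. A had the sign of P and a size of at least 1 in both conditions in 235 of the 384 (61.2%). The limits on the allele share left out 103 of those 235, 65 higher in HK104 and 38 higher in AF16, since nearly all their reads came from 1 allele in at least 1 library. Of the rest of the 384, A was below 1 in size in both conditions in 90 genes, past 1 with the sign opposite to P in both in 3, and past 1 in only 1 condition or of changing sign in 56. Without the limits on the share the set would thus hold 127 HK104-higher and 108 AF16-higher genes, the reverse of the order of the 62 and 70 genes.

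The sizes of A and P were set side by side, both of them limited from below by the choice. The limits on the allele share also limit A from above, while P has no upper limit. The ratio of A to P, averaged over the conditions, had a median of 1.11 in the 132 genes. In the 384 genes, where no lower limit on A applied, its median was 0.965 with quartiles of 0.438 and 1.41, so A was much smaller than P in many of those genes. The size of A minus that of P had a median of 0.06 in the HK104-higher genes and 0.27 in the AF16-higher genes. For the HK104-higher genes this sign was not stable, as it was -0.07 with a pseudocount of 0.1 in both ratios and as low as -0.04 with a parental library left out. For the AF16-higher genes it was 0.097 with a pseudocount of 0.1 and 0.36 with a pseudocount of 1. A was larger than P in size in both conditions in 56 genes and smaller in both in 36, and the mean sizes lay within 0.5 of each other in 70. Across genes, which are not independent replicates, Pearson's r between P and A was 0.28 after cold and 0.50 in control for the 62 HK104-higher genes, and 0.49 after cold and 0.56 in control for the 70 AF16-higher genes, within ranges limited by the choice.

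The largest excess of A over P was at genes with few reads. WBGene00271289 had a mean A 1.76 above its mean P, from 23 HK104 and 3 AF16 reads after cold and 38 HK104 and 5 AF16 reads in control, and WBGene00036111 one 1.52 above, with at most 4 AF16 reads in a library. Neither parent exceeded 5.08 CPM of WBGene00036111 or 1.59 CPM of WBGene00271289 in any library, and at these levels the 0.5 added to each mean lowers P by construction. In the other direction, WBGene00038387 had 28.2 and 29.3 CPM in HK104 after cold, against 0.326 and 0.817 CPM in AF16. Its A was 2.59 in both conditions, beside a P of 4.77 after cold and 3.97 in control. WBGene00024619, described above, followed it with a mean A 1.56 smaller than its mean P. Where P is past the cap that the share limits set on A, a smaller A follows by construction, though not how much smaller. The P of 3.97 at WBGene00038387 in control was not past that cap. The cause of the gaps at these 2 genes was not tested.

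Most of the 132 genes were lowly expressed. The mean level over the parental libraries had a median of 8.10 CPM, with a range from 0.658 to 483 CPM, against a median of 48.8 CPM in all 8100 genes with the minimum of assigned reads. A mean below 10 CPM was found in 36 of the 62 HK104-higher genes and in 40 of the 70 AF16-higher genes, and a mean of 100 CPM or more in 3 genes of each set. The median number of assigned reads was 110 after cold and 97 in control, with 50 genes under 50 reads in at least 1 hybrid library. Together the 132 genes took 0.704% of assigned reads after cold and 0.742% in control.

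Counting error set how closely an allele share is known. In 69 of the 132 genes, 32 higher in HK104 and 37 higher in AF16, the 95% Wilson interval of the AF16 share lay past the share that corresponds to a 2-fold allele difference, 33.3% or 66.7%, in both hybrid libraries. In the other 63 the reads leave room for a smaller difference in at least 1 library. At WBGene00027372, for example, 1 of 20 reads in control and 4 of 20 after cold came from the HK104 allele. In 6 genes both libraries of the lower strain had at most 3 counts in at least 1 condition. WBGene00037326 was the only one with this in both conditions. It had 2 and 1 counts in HK104 after cold, against 6.12 and 4.68 CPM in AF16, and 0 and 1 counts in HK104 control worms, against 6.73 and 7.13 CPM in AF16, so that its level was at least 28.5-fold lower in HK104 after cold and at least 40.3-fold lower in control, counted against 3 counts per library.

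The strain comparison of the parental libraries was fitted across 13503 genes with edgeR's quasi-likelihood test, and all 132 genes passed its filter on low counts. After cold 126 of the 132 were called at a Benjamini-Hochberg adjusted p (FDR) below 0.05, beside 12.7% of all tested genes. Of these, 60 were higher in HK104, beside 7.08% of all tested genes, and 66 lower, beside 5.58%. In control 120 were called, beside 7.01% of all tested genes, with 53 higher in HK104, beside 3.01%, and 67 lower, beside 4.00%. The 53 genes numbered 32 without AF16 control replicate 1, and 33 without AF16 control replicate 2 or HK104 control replicate 1. The 67 genes numbered 42 without AF16 control replicate 2, and 36 without either HK104 control library. The HK104 and AF16 libraries did not overlap in either condition in all 132 genes, beside 27.2% of all tested genes, and 25.3% of those with the minimum of reads, with such a separation in one direction. These counts follow from the choice of genes and are given for completeness.

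Between the conditions, the allele ratio moved less in the genes with many reads than in all 132. The choice of genes bounds this change in part. The absolute change of A from control to cold had a median of 0.46, against 0.24 in the other 7456 genes with enough reads and an AF16 share between 5% and 95%. In the 57 genes with at least 100 reads in each hybrid library, a limit chosen after seeing the data, it was 0.21, against 0.18 in the other 5079 genes with that depth. The upper quartile was 0.57 in the 57 genes, with a maximum of 1.34, against an upper quartile of 0.33 in the 5079. The change was at most 0.5 in 69 genes and above 1 in 24. For P, an average over 2 libraries a strain, the absolute change had a median of 0.27, with at most 0.5 in 91 genes and above 1 in 13. A and P changed with the same sign in 75 of the 132 genes. A was farther from 0 after cold than in control in 78 genes, and P in 81. The matching shares of other genes are not given here, so nothing is read from the 75, the 78 and the 81.

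The largest changes of A were at genes with few reads on the minor allele. The change from control to cold was 1.87 at WBGene00034694, which had 24 HK104 and 2 AF16 reads after cold and 41 HK104 and 15 AF16 reads in control, and 1.83 at WBGene00027372. It was -1.90 at WBGene00087399, which had 61 HK104 and 25 AF16 reads after cold and 40 HK104 and 4 AF16 reads in control, and -1.58 at WBGene00042349, which had 3 HK104 and 25 AF16 reads after cold and 10 HK104 and 25 AF16 reads in control. The Wilson intervals of the cold and control shares overlapped in all 4 of these genes. With 1 hybrid library in each condition, no test of such a change is possible.

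The Wilson intervals of the cold and the control share lay apart in 5 of the 132 genes (3.79%). The same held in 583 of the other 7456 genes (7.82%) with enough reads and a share within the limits. These numbers depend on the depth of each gene, and the choice limits how far the share of the 132 genes can move. Of the 5 genes, 3 were HK104-higher, with a lower AF16 share after cold in each. At WBGene00030574 the AF16 share was 16.7% after cold and 31.4% in control, at WBGene00032554 it was 15.6% after cold and 22.3% in control, and at WBGene00270496 it was 24.5% after cold and 32.9% in control. The others were AF16-higher and moved in opposite ways. WBGene00040312 had an AF16 share of 70.3% after cold and 78.2% in control, and WBGene00040539 one of 87.1% after cold and 72.4% in control.

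**Figure D3:**
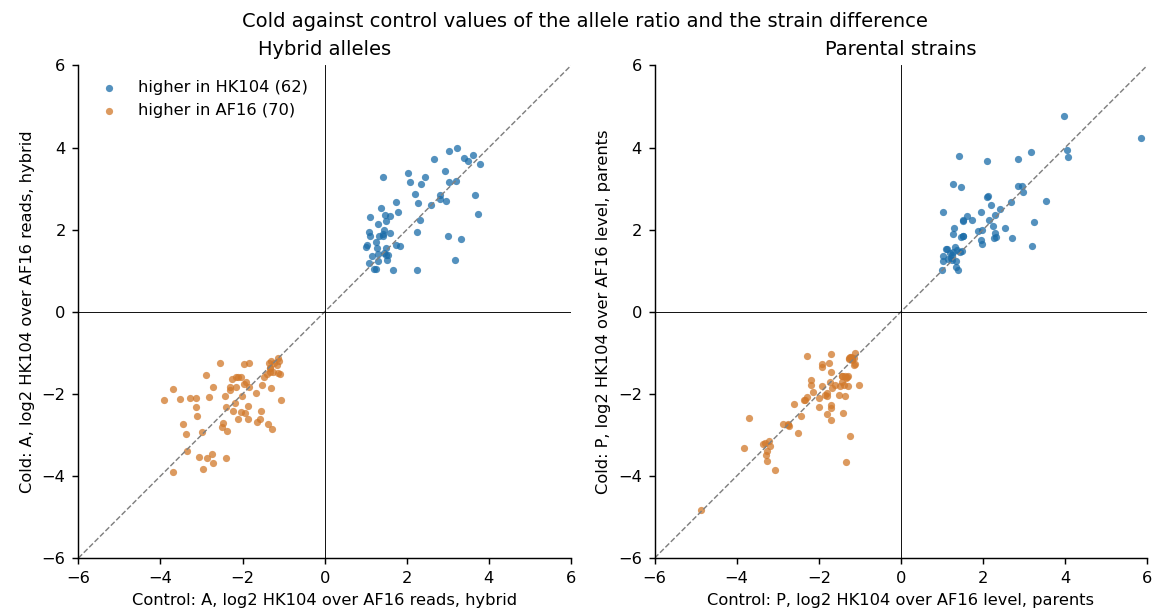
Values after cold (vertical axis) are plotted against values in control (horizontal axis) for A, the log2 ratio of HK104 to AF16 reads in the hybrid (left), and for P, the log2 ratio of HK104 to AF16 levels in the parents (right), with 1 point per gene and a dashed line of equal values. P lies closer to the line, with a median absolute change of 0.27, than A, with a median of 0.46 over all 132 genes.

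The response to cold was not itself part of the choice, but the choice limits it. The minimum of reads in the cold hybrid library can leave out genes that fall. The minimum size of P after cold can leave out genes that fall to very low levels, or whose responses differ between the strains. Of the 132 genes, 103 (78.0%) were called in neither strain and 29 in at least 1. The matching share of other genes was not counted directly, so nothing is read from the 103 and the 29. Of the 8099 tested genes with the minimum of reads, 1301 were called in HK104 and 1343 in AF16. Among these, 753 fell in both strains, 132 rose in both and 15 were called in opposite directions. For the 132 genes, the comparison is given for each strain. In HK104, 8 genes rose and 16 fell after cold. Those 24 genes are 18.2%, beside 21.1% of all tested genes and 16.1% of the tested genes that met the minimum of reads. In AF16, 4 genes rose and 17 fell. Those 21 genes are 15.9%, beside 22.9% of all tested genes and 16.6% of those with the minimum. By direction, 4.54% of all tested genes rose and 16.6% fell in HK104, and 2.78% rose and 20.1% fell in AF16. Among the tested genes with the minimum of reads, 4.91% rose and 11.1% fell in HK104, and 2.58% rose and 14.0% fell in AF16. The shares of called genes thus lay near those of the genes with the minimum of reads. The median log2 response of the 132 genes was 0.17 in HK104 and 0.03 in AF16, beside 0.14 in HK104 and 0.08 in AF16 for the 8099 tested genes with the minimum.

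The counts of genes that rose depended on single libraries. In HK104, where 8 rose, the count was 14 without AF16 cold replicate 1, 13 without HK104 cold replicate 2, 2 without HK104 control replicate 1, and 1 without HK104 control replicate 2 or HK104 cold replicate 1. In AF16, where 4 rose, it was 11 without AF16 cold replicate 2, 1 without either HK104 control library and 0 without either AF16 control library. With the size factors of DESeq2 in place of TMM scaling, 8 genes rose and 15 fell in AF16, and the median log2 response of all tested genes in AF16 was 0.11, against -0.06 with TMM. The counts of genes that fell stayed between 11 and 17 in HK104 and between 12 and 19 in AF16 when a library was left out.

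After cold, 13 genes (9.85%) fell in both strains, 8 HK104-higher and 5 AF16-higher, beside 13.1% of all tested genes and 9.30% of those with the minimum of reads. Their median log2 response was -2.17 in HK104 and -2.0 in AF16. In the hybrid it was -1.87, and both alleles were lower after cold than in control in all 13. The matching share of other genes that fell in both strains is not given here, so nothing is read from that count. The absolute change of their A between the conditions had a median of 0.35, with a range from 0.027 to 1.87.

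WBGene00034139 was among them. Its log2 response was -3.04 ± 0.36 in HK104 (SE, edgeR FDR 0.000259) and -2.33 ± 0.36 in AF16 (FDR 0.00121), and in the hybrid it was -2.57 for the HK104 allele and -2.55 for the AF16 allele. WBGene00041295 fell by 2.17 in HK104 (SE 0.37, FDR 0.0022) and by 1.80 in AF16 (SE 0.37, FDR 0.00596), where it fell by 1.10 without AF16 cold replicate 2. At WBGene00040669 the log2 response was -1.44 ± 0.26 in HK104 (FDR 0.0031) and -1.44 ± 0.27 in AF16 (FDR 0.00379), and the AF16 call was lost without AF16 cold replicate 2 (FDR 0.0584). The levels of these 3 genes in the cold libraries lay below those in the control libraries of the same strain in every case.

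The largest mean falls called in both strains were at WBGene00042154 and WBGene00034967. WBGene00042154, an AF16-higher gene, had 0.762 and 0.566 CPM in HK104 cold worms against 13.0 and 11.7 CPM in HK104 control worms, and 12.3 and 5.77 CPM in AF16 cold worms against 31.8 and 27.4 CPM in AF16 control worms. Its log2 response was -4.22 ± 0.38 in HK104 (FDR 6.22e-05) and -1.84 ± 0.30 in AF16 (FDR 0.00162). The difference between these responses was not called in the edgeR test. In the hybrid the response was -2.80 for the HK104 allele and -2.69 for the AF16 allele. These values come from 12 HK104 and 30 AF16 reads after cold and 77 HK104 and 174 AF16 reads in control. With 1 hybrid library per condition, the contrast with the parents was not tested. WBGene00034967, an HK104-higher gene, had 1.84 and 2.01 CPM in HK104 cold worms against 20.6 and 19.7 CPM in HK104 control worms, a log2 response of -3.40 ± 0.30 (FDR 6.19e-05). In AF16 it had 0.326 and 0.272 CPM in cold worms against 2.08 and 1.45 CPM in control worms, a log2 response of -2.62 ± 0.40 (FDR 0.00124), and its AF16 allele in the hybrid held 2 reads after cold and 16 in control.

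In both strains 3 genes rose (2.27% of the 132), beside 1.60% of all tested genes and 1.63% of those with the minimum of reads. Both alleles of the hybrid were higher after cold in all 3, a count given without the matching share of other genes. WBGene00042719, an AF16-higher gene, had 3.62 and 4.03 CPM in HK104 cold worms against 1.64 and 1.73 CPM in HK104 control worms, and 23.1 and 13.0 CPM in AF16 cold worms against 8.69 and 7.83 CPM in AF16 control worms. Its log2 response was 1.16 ± 0.32 in HK104 (FDR 0.0257) and 1.01 ± 0.28 in AF16 (FDR 0.0251). The HK104 call was lost without any one of the HK104 libraries (FDR 0.0928 to 0.145), and the AF16 call without AF16 control replicate 1 (FDR 0.113), AF16 control replicate 2 (FDR 0.161) or AF16 cold replicate 1 (FDR 0.0888). With the libraries of 1 strain alone, the FDR was 0.0624 in HK104 and 0.0519 in AF16. The other 2 were WBGene00030574 and, named after its values were seen, WBGene00028162, with a log2 response of 0.72 ± 0.21 in HK104 (FDR 0.037) and 0.76 ± 0.21 in AF16 (FDR 0.0242). Since no gene of the 132 rose in AF16 with the AF16 libraries alone, or without either AF16 control library, the AF16 calls of all 3 genes were lost there.

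WBGene00030574, an HK104-higher gene, had the largest rise of the 132 genes in HK104. It had 94.3 and 75.0 CPM in HK104 cold worms against 9.19 and 7.0 CPM in HK104 control worms, and 7.03 and 4.25 CPM in AF16 cold worms against 3.12 and 2.38 CPM in AF16 control worms. The log2 response was 3.36 ± 0.27 in HK104 (FDR 4.4e-05) and 0.92 ± 0.28 in AF16 (FDR 0.0404). The AF16 call was lost with the AF16 libraries alone (FDR 0.119) and when any library other than AF16 cold replicate 2 was left out (FDR 0.0503 to 0.266). In the hybrid the HK104 allele had 518 reads after cold and 35 in control, and the AF16 allele 104 reads after cold and 16 in control, a log2 response of 3.70 for the HK104 allele and 2.49 for the AF16 allele. The hybrid's AF16 allele thus changed more than the AF16 parent, and with 1 library per condition this was not tested.

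The difference between the cold responses of the strains is the change of P, which the choice of genes restricts. It was called at 1 of the 132 genes (0.758%), beside 0.496% of all tested genes, of which 0.437% were higher and 0.0592% lower in HK104. This gene was WBGene00030574, with a response higher by 2.44 ± 0.38 in HK104 on the log2 scale (edgeR FDR 0.0253). The call was lost with DESeq2 size factors (FDR 0.0514) and without any one of 6 libraries, AF16 control replicate 1 (FDR 0.118), AF16 control replicate 2 (FDR 0.0622), AF16 cold replicate 2 (FDR 0.141), HK104 control replicate 1 (FDR 0.0725), HK104 control replicate 2 (FDR 0.148) and HK104 cold replicate 1 (FDR 0.285). A further 8 genes (6.06%) were called in HK104 and not in AF16, and 5 (3.79%) in AF16 and not in HK104. None of these 13 was called for a difference between the strains. The share of all tested genes called in 1 strain only was not counted directly. Of the 13503 tested genes, 2852 were called in HK104 and 3087 in AF16. Among these, 1775 fell in both strains, 216 rose in both and 24 were called in opposite directions. Nothing is read from the 8 and the 5. None of the 132 was called in opposite directions, beside 0.178% of all tested genes. Other settings added calls, with 2 genes of lower response in HK104 without the filter, with the DESeq2 test and with the replicate block. The edgeR test called 0 such genes. At an unadjusted p below 0.05 in that test, 6 of the 132 had a lower and 8 a higher response in HK104. The share of all tested genes at that p was not counted, so nothing is read from these numbers.

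**Figure D4:**
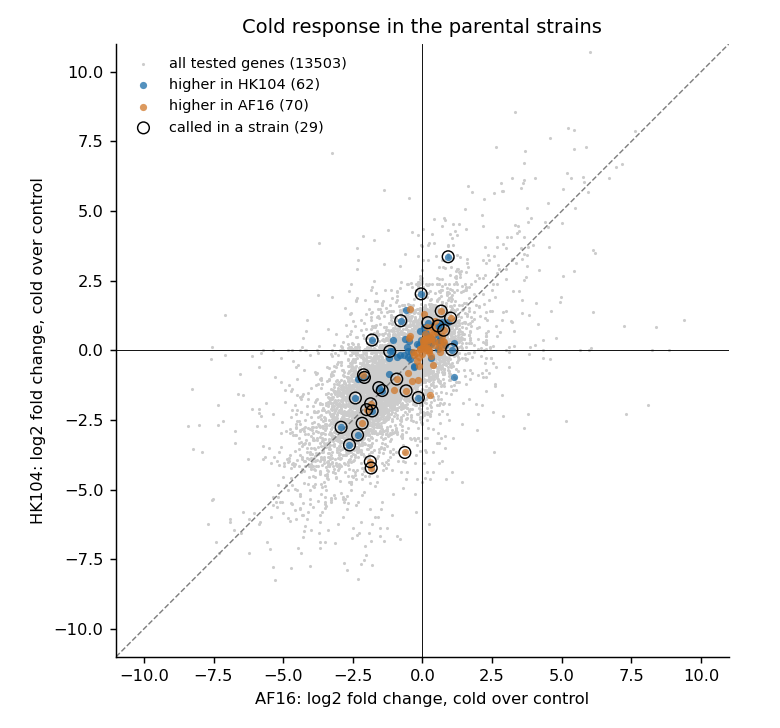
The log2 fold change from control to cold in HK104 (vertical axis) is plotted against that in AF16 (horizontal axis) for all 13503 tested genes (grey), the 132 genes (blue where higher in HK104, orange where higher in AF16) and the 29 of them called in at least 1 strain (ringed). The 13 genes that fell in both strains lie in the lower left quadrant, and WBGene00030574 lies alone at 3.36 in HK104 and 0.92 in AF16.

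The responses of the 2 alleles inside the hybrid had the same sign in 93 of the 132 genes, and those of the 2 parental strains in 107 (81.1%), beside 85.0% of the tested genes with the minimum of reads. The signs of small changes are uncertain at these depths. No share of other genes is given beside the 93, so nothing is read from it. At WBGene00028173, an HK104-higher gene, P was larger after cold and A smaller. The difference between the strains' responses was not called there in the edgeR test, and the change of A was not tested. It had 29.9 and 14.1 CPM in HK104 cold worms against 9.41 and 11.1 CPM in HK104 control worms, and 1.30 and 1.2 CPM in AF16 cold worms against 2.08 and 1.97 CPM in AF16 control worms. In the hybrid the HK104 allele had 103 reads after cold and 59 in control, and the AF16 allele 51 reads after cold and 12 in control, so A was 1.01 after cold and 2.25 in control while P was 3.68 after cold and 2.09 in control. The Wilson interval of the AF16 share was 26.2% to 40.9% after cold and 9.94% to 27.3% in control, and the intervals overlap. The log2 response in HK104 was 1.06 ± 0.32 (edgeR FDR 0.0407). It was 0.43 (FDR 0.443) without HK104 cold replicate 1, and the call was also lost with the HK104 libraries alone (FDR 0.0823) and without AF16 control replicate 1 (FDR 0.0576), AF16 control replicate 2 (FDR 0.0596), AF16 cold replicate 2 (FDR 0.0590), HK104 control replicate 1 (FDR 0.221) or HK104 control replicate 2 (FDR 0.143).

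**Figure D5:**
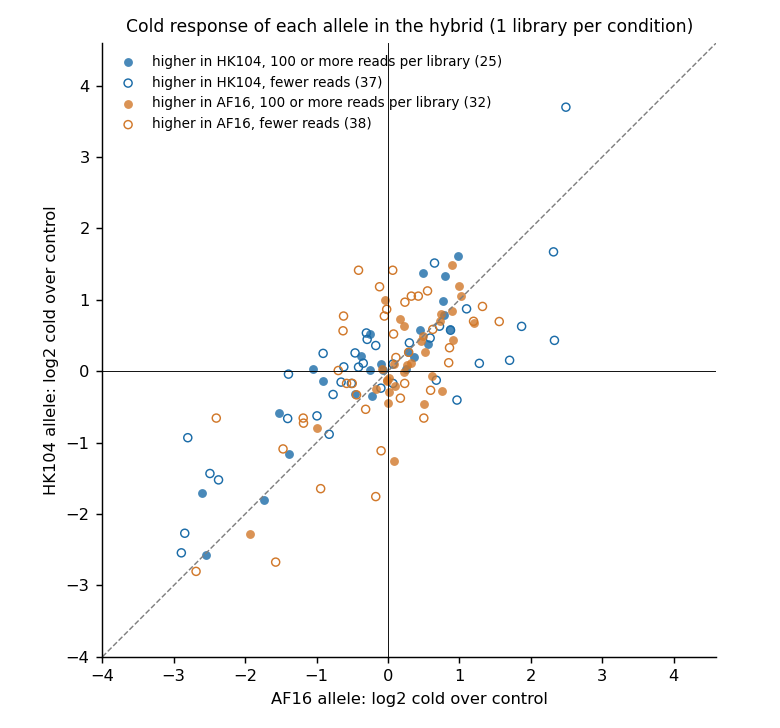
The log2 ratio of cold to control reads, each in CPM of assigned reads, is plotted for the HK104 allele (vertical axis) against the AF16 allele (horizontal axis) in the hybrid, which has 1 library per condition. Filled points are genes with at least 100 reads in each library (57) and open points genes with fewer, and the dashed line marks equal responses. The filled points lie nearer the line, with a median absolute change of A of 0.21 against 0.46 over all 132 genes, and WBGene00030574 is at the upper right, with 3.70 for the HK104 allele and 2.49 for the AF16 allele.

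The hybrid's level, as both alleles together in CPM of assigned reads, lay above both parental means in 105 of the 132 genes after cold and in 106 in control. It lay between the parental means in 24 genes after cold and 24 in control, and below both in 3 genes after cold and 2 in control. In both conditions it lay between the parental means in 17 genes. With TMM scaling over the 10 libraries this number was 30, so these counts depend on the scaling. Among the other 7968 genes with the minimum of reads, 64.0% lay above both parents after cold and 63.6% in control. In the genes with at least 10 CPM averaged over the parents, the level was above both in 41 of 57 after cold (71.9%), beside 57.8% of the other genes, and in 39 of 56 in control (69.6%), beside 57.6% of the other genes. Only reads that can be told apart between the alleles are counted in the hybrid, so a higher level and more such reads in a gene cannot be told apart, and the minimum of reads favours genes with a high value in the hybrid.

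The genes farthest above both parents were WBGene00032879, with 12.3 CPM of assigned reads in the hybrid after cold and 7.87 in control and no parental library above 1.89 CPM, and WBGene00271289, with 4.33 after cold and 8.06 in control. The genes below both parents in both conditions were WBGene00040657 and WBGene00027635. WBGene00040657 stood at 7.49 CPM of assigned reads in the hybrid after cold, against 79.2 and 60.6 CPM in HK104 and 35.9 and 23.2 CPM in AF16. WBGene00027635 stood at 115 CPM of assigned reads in the hybrid after cold and 118 in control, below every parental library.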

How the data were processed

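The authors deposited whole-number counts per gene for the 8 parental libraries, and whole-number counts in 4 columns for the hybrid, read here as the HK104 and AF16 allele counts of either hybrid library. Per the submitters' processing notes, cutadapt, HISAT2 2.2.0, HTSeq 0.11.1 and edgeR were used. The genome build, the strand setting and the rule that assigns reads to alleles are not given in the sources used here, so reads shared by near-identical or overlapping genes, and reads of a strain lost in mapping, could alter both P and A. The deposited edgeR tables were not used here.

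CPM was the count per 1000000 counts of the library, or per 1000000 assigned reads in the hybrid. The parental counts were fitted with edgeR 4.0.16 (limma 3.58.1, R 4.3.3) by the quasi-likelihood F test with TMM scaling, filterByExpr with a minimum count of 10, 4 groups and 13503 genes, with Benjamini-Hochberg adjustment over all of them and a call at FDR below 0.05. The SE of a log2 fold change is its size over the square root of F. The hybrid, with 1 library per condition, was described without a test. Groups come from the strain and treatment in the sample titles. The alternatives were DESeq2 1.42.0 and its size factors, no filter, bias-adjusted dispersions, other limits of the rule, a replicate block and each library left out.

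The 132 genes, the lists and the tests were chosen with earlier results of these data known. Named genes, up to 2 per direction, were those with the largest smallest value of P and A, nearest the cut, most abundant, called after cold in both strains or for the difference between strains, with the largest gaps between A and P, the largest changes of A, or a hybrid level farthest outside the parents. Gene lists by name could not be used, since none of the identifiers matched the table of gene symbols.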

Additional observations from a re-analysis of the deposited data

Results flagged for a closer look

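WBGene00030574 was flagged because its cold response differed between the strains by the test of the difference itself. That difference is the change of P, which the choice of genes restricts. The 1 call among the 132 genes (0.758%) lay near the 0.496% of all tested genes. It was lost with DESeq2 size factors (edgeR FDR 0.0514). The response was higher in HK104 than in AF16 by 2.44 ± 0.38 on the log2 scale (SE, edgeR FDR 0.0253), with a log2 response of 3.36 in HK104 and 0.92 in AF16. In the hybrid the log2 response was 3.70 for the HK104 allele and 2.49 for the AF16 allele, in 1 library per condition. The difference between the strains stayed between 2.0 and 2.67 when a library was left out, although the call was lost in 6 of those 8 fits.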

How the results depend on the processing

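The number of genes found by the rule was 132 (62 HK104-higher, 70 AF16-higher). It was 82 (39 and 43) with a minimum of 50 reads, 235 (127 and 108) without share limits, 365 (161 and 204) with a size cut of 0.5 and 26 (11 and 15) with a cut of 2. Leaving out each parental library gave 125 to 134 genes, 57 to 64 HK104-higher and 61 to 74 AF16-higher, and 103 of the 132 were found in all 8 such repeats. Genes that rose in AF16 (4) numbered 8 with DESeq2 size factors, 9 with the DESeq2 test, 0 with the AF16 libraries alone and 0 to 11 with a library left out. Genes that rose in HK104 (8) numbered 13 with the replicate block and 1 to 14 with a library left out, and falls numbered 11 to 17 in HK104 and 12 to 19 in AF16. Genes with a higher response in HK104 than in AF16 (1) numbered 0 with DESeq2 size factors and 0 to 1 with a library left out. Genes with a lower one (0 with edgeR) numbered 2 without the filter, 2 with the DESeq2 test, 2 with the replicate block and 0 with a library left out. Strain calls with a library left out numbered 43 to 59 higher and 56 to 67 lower after cold, and 32 to 57 higher and 36 to 70 lower in control. The median absolute change of A (0.46) was 0.33 in genes with at least 50 reads and 0.21 with at least 100. The hybrid lay between the parents in both conditions in 17 genes, in 30 with TMM scaling over the 10 libraries and in 15 to 19 with a library left out. The size of A minus that of P ranged from -0.04 to 0.20 in HK104-higher and from 0.22 to 0.31 in AF16-higher genes with a library left out. The cause of these shifts was not tested, other than the smaller sets that stricter limits leave by construction. The replicate numbers were not taken to pair the samples, since the deviations of same-numbered libraries correlated at -0.0440 to 0.390 between groups with 2 numbers each. The precision of A is limited by the reads per allele.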

Other observations

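The identifiers of the 132 genes clustered by number. Of the 132 genes, 27 (20.5%) had another of the 132 within 5 identifier numbers, beside 425 of the other 7968 genes with the minimum of reads (5.33%) that had one of the 132 so near. These formed 14 pairs, and 10 of the pairs had the same strain higher. Among the pairs, singled out after its values were seen, was that of WBGene00034138, an AF16-higher gene, and WBGene00034139, an HK104-higher gene, which both fell after cold in both strains. Identifier numbers are labels and not positions, and no table used here gives positions for them.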
